A study of Homo sapiens with 12 samples.

Results

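The genes described here carry out or control the synthesis of sterols and fatty acids. They are 36 genes given as a list of names from the SREBP and LXR pathways, found in the count table by gene ID, out of 58288 gene IDs in all. The rule that found them uses no measured value, but the list was chosen with earlier results of these data known. By role, 18 encode enzymes of sterol synthesis, 5 control the SREBP transcription factors, 7 encode enzymes of fatty acid synthesis, and 6 encode the LXR receptors and genes of sterol transport. All 36 were found in the table, and 35 had enough counts to be tested. The exception was ABCG1, a sterol exporter of the plasma membrane, which had 0 counts in all 12 libraries (an upper limit of 0.0358 CPM over the 12 libraries, which 3 missed counts would give; CPM are counts scaled to the library's total).

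The RNA came from HK2 cells, an immortalised human kidney line labelled as proximal tubule cells. Cells carried either a nontarget control shRNA or an shRNA against FLCN, the gene mutated in Birt-Hogg-Dubé syndrome, which predisposes to kidney tumours. Each was harvested at fewer than 30 passages (short-term) or after 120 passages (long-term), as the labels give it. The study's methods set a lower minimum for long-term cells, and the passage number of each library was not given in the sources used here. This gave 4 groups, named by time and shRNA (short-term or long-term, nontarget or FLCN knockdown), with 3 libraries in each. All groups were grown in the same serum-containing medium, and all carried a stably selected shRNA. The lines had been through clonal selection, and the sources used here do not say which clone each library came from, so an effect of the shRNA and an effect of the clone cannot be told apart. Replicates are labelled as biological. Whether each came from a culture kept separately over the passages was not given in the sources used here, so p-values measure the spread between these libraries, which may be partly technical. In bulk RNA, fewer cells that express a gene and less of its RNA per cell cannot be told apart.

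Cells make cholesterol from acetyl-CoA through the mevalonate pathway and make fatty acids from the same acetyl-CoA through malonyl-CoA. SREBP proteins, encoded by SREBF1 and SREBF2, are held in the endoplasmic reticulum by INSIG proteins when sterols are plentiful. When sterols run low, SCAP carries them to the Golgi, where they are cut and released as transcription factors for the synthesis genes. LXR receptors act in the opposite situation: they bind oxidised sterols and switch on sterol export (ABCA1, ABCG1), removal of lipoprotein receptors (MYLIP) and fatty acid synthesis through SREBF1. The proximal tubule relies mainly on burning fatty acids for energy, and clear cell renal tumours often store sterol esters and triglycerides. FLCN acts on the Rag GTPases at the lysosome and keeps the MiT/TFE transcription factors, which bind E-boxes, out of the nucleus.

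Promoter windows from RefSeq (GRCh38.p14, 250 bases before to 50 bases after each start) were at hand for 31 of the 36 genes and for 27305 genes in all. The following 5 are shown because the results turn on them: SREBF2 is the one gene whose window held the core of a sterol regulatory element, MSMO1 and ACLY were lower in both knockdowns, and INSIG1 and ABCA1 were higher in the long-term knockdown. Each line gives the 200 bases before the start, 5′ to 3′ on the strand of the gene. Capitals mark 3 motifs searched on both strands: TCACNCCAC, the core of a sterol regulatory element (N is any base), CCAAT, the box bound by NF-Y (ATTGG on the other strand), and CACGTG, an E-box.
SREBF2, chr22:41832905-41833104, plus strand: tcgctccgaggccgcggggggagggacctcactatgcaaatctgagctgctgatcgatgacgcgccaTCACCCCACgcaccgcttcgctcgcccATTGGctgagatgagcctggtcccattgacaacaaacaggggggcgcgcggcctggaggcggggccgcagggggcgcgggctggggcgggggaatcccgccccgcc
INSIG1, chr7:155297678-155297877, plus strand: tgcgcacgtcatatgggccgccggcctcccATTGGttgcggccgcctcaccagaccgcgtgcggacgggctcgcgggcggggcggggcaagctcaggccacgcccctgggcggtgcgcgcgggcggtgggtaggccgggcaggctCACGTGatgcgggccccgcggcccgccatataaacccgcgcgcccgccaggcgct
MSMO1, chr4:165327469-165327668, plus strand: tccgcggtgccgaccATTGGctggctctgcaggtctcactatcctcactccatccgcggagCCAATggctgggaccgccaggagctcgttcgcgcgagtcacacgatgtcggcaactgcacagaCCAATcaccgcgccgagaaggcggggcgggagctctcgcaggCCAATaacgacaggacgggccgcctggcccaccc
ACLY, chr17:41919023-41919222, minus strand: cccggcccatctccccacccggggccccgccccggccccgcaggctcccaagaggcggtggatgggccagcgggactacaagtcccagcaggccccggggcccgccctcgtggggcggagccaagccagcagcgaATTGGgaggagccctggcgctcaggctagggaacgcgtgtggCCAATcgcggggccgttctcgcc
ABCA1, chr9:104928156-104928355, minus strand: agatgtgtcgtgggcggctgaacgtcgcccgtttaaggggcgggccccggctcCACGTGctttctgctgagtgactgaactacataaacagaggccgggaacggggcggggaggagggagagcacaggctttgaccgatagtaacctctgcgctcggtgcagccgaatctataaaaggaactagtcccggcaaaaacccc

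The sterol regulatory element core was found in the window of 1 of the 31 genes, SREBF2, where it starts 133 bases before the start, and in 1.44% of the 10052 tested genes with a window. CCAAT was found in 22 of the 31 genes and in 43.2% of tested genes with a window. Among the sterol synthesis genes it was found in 13 of the 15 with a window, and MSMO1 held 4 copies. CACGTG was found in 5 of the 31 genes (LSS, SC5D, INSIG1, SCAP and ABCA1) and in 12.9% of tested genes with a window. It starts 55 bases before the start in INSIG1 and 147 bases before it in ABCA1. These are matches of letters only, and binding was not measured.

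The libraries held 5825779 to 8991051 counts assigned to genes, of which the 36 genes took 0.389% to 0.624%. FLCN itself was measured at 12.7, 16.7 and 16.5 CPM in short-term nontarget, 5.95, 6.58 and 5.66 in short-term knockdown, 9.92, 11.9 and 12.2 in long-term nontarget, and 6.70, 6.31 and 7.97 in long-term knockdown. It fell by 59.1% in the short-term knockdown (log2 fold change -1.29, SE 0.17, adjusted p = 0.000112) and decreased by 37.6% in the long-term knockdown (-0.68, SE 0.17, adjusted p = 0.00611). Of 6 proximal tubule markers, 5 (LRP2, CUBN, ANPEP, SLC34A1, AQP1) averaged under 1 CPM, with LRP2 at 0 counts in every library. The remaining one, GGT1, was at 37.5 to 46.5 CPM in short-term nontarget, 56.9 to 65.5 in short-term knockdown, 27.9 to 46.1 in long-term nontarget and 58.2 to 77.5 in long-term knockdown, without overlap between knockdown and nontarget at either time. KRT8, a keratin of simple epithelia, was at 1644 to 1742 CPM in short-term nontarget, 1873 to 2587 in short-term knockdown, 1879 to 2220 in long-term nontarget and 1457 to 2107 in long-term knockdown. The epithelial marker PAX8 was at 148 to 177 CPM in short-term nontarget and 195 to 210 in short-term knockdown, but at 230 to 269 in long-term nontarget and 150 to 183 in long-term knockdown, so its groups did not overlap at either time and lay on opposite sides. Summed endothelial markers reached at most 2.20 CPM and leukocyte markers at most 1.06 CPM, and of 5 fibroblast markers 3 averaged under 1 CPM, with a summed level of 21.9 to 31.1 CPM in short-term nontarget, 24.9 to 41.2 in short-term knockdown, 23.1 to 31.6 in long-term nontarget and 14.8 to 27.6 in long-term knockdown. Of these PDGFRB was at 2.89 to 4.71 CPM, 1.39 to 3.72, 5.27 to 9.32 and 0.347 to 1.19 in the same order of groups. Mitochondrial genes took 2.72% to 3.34% of counts in long-term nontarget and 3.79% to 5.60% in the other 3 groups. The part of these markers and shares in the results was not tested.

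Levels differed widely among the genes. Per kilobase of exon (RPKM, averaged over the 12 libraries), SCD, the desaturase that makes monounsaturated fatty acids, was highest at 288, and it alone gave 28.97% of the counts of the 36 genes. EBP (66.9), ACLY (63.4), FDFT1 (59.2) and HMGCS1 (58.4) followed. At the low end lay TM7SF2 (0.83), NR1H3 (1.5), ELOVL6 (1.91) and MYLIP (2.11). The last 4 had few reads in some libraries: 3 to 40 for TM7SF2, 15 to 76 for NR1H3, 37 to 167 for ELOVL6 and 11 to 72 for MYLIP.

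**Figure D1:**
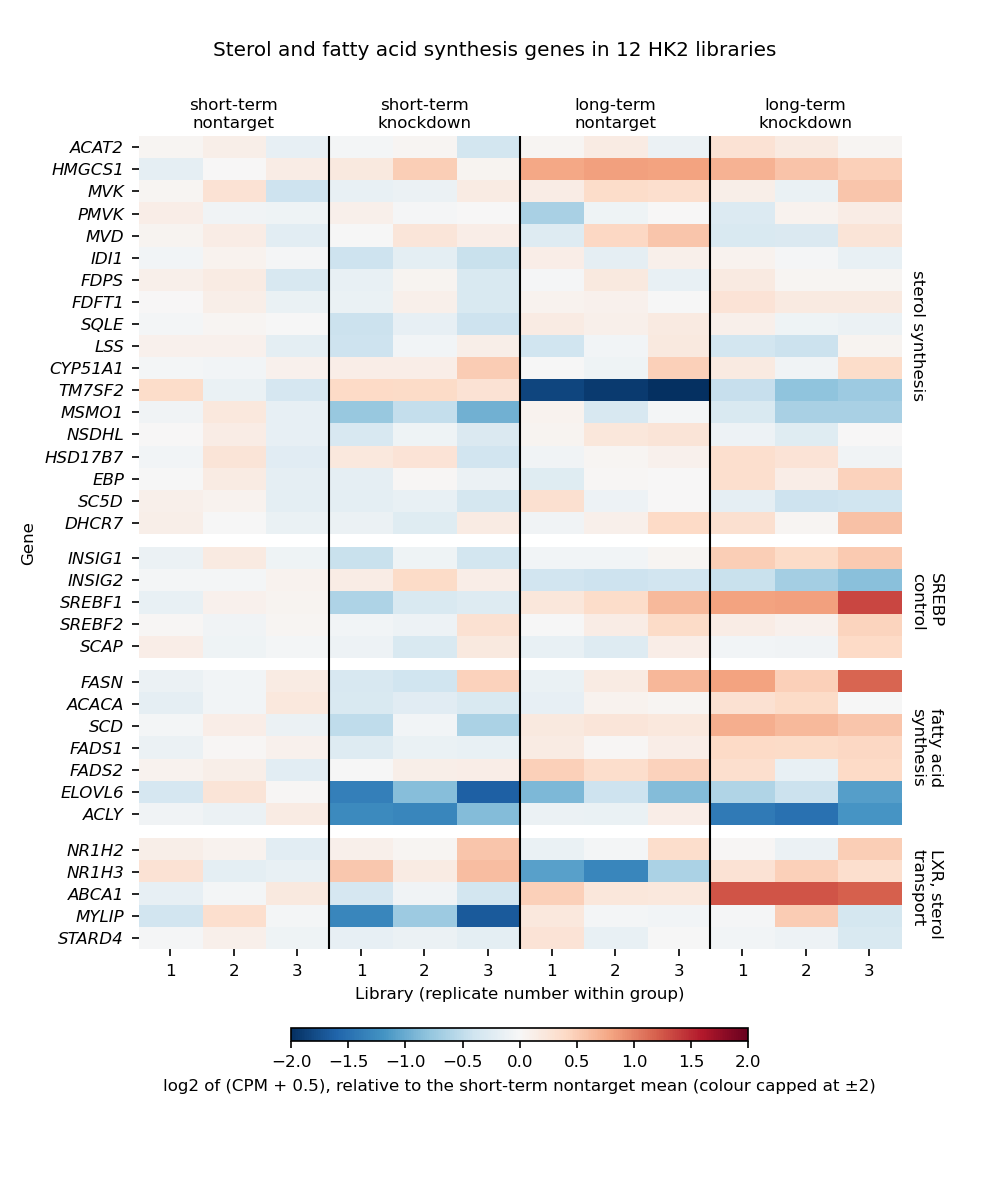
Level of the 35 tested genes (rows, grouped by role) in each of the 12 libraries (columns), as log2 of CPM plus 0.5 relative to the mean of short-term nontarget; red is higher, blue is lower. ACLY is blue in all 6 knockdown libraries, ABCA1 and SREBF1 are red in the 3 long-term knockdown libraries, and most sterol synthesis rows stay pale.

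The first question was how FLCN knockdown changed these genes, early and late. Tests were made with edgeR's quasi-likelihood test on counts over 13959 genes, and a gene is said here to have risen or fallen where the Benjamini-Hochberg adjusted p was below 0.05. After short-term knockdown 0 of the 35 genes rose, against 5.62% of all tested genes (0 also in DESeq2, and 2, HMGCS1 and NR1H3, at an unadjusted p below 0.05), and 5 fell (14.3%), against 4.71%: SQLE, MSMO1, ELOVL6, ACLY and MYLIP. DESeq2 gave 7 that fell, adding IDI1 (adjusted p = 0.0413) and SCD (0.0458). With long-term knockdown 8 rose (22.9%), against 13.7% of all tested genes: TM7SF2, EBP, INSIG1, SREBF1, SCD, FADS1, NR1H3 and ABCA1. In that comparison 3 fell (8.57%), against 15.8% of all tested genes: MSMO1, SC5D and ACLY. These comparisons share no libraries, but they come from the same fit and may come from the same clones. Only MSMO1 and ACLY passed in both comparisons, and both were lower each time. These 2 were 5.71% of the 35 genes, where 6.28% of all tested genes passed in both in any direction and 2.64% were lower in both. The median log2 fold change over the 35 genes was -0.10 in the short-term comparison and 0.07 in the long-term one, where the median over all tested genes was 0.00013 and 0.00095. Altogether 21 of the 35 genes (60%) passed in neither knockdown comparison, as did 66.5% of all tested genes. All 30 that did not pass early, and 23 of the 24 that did not pass late, had log2 fold changes within 0.5 of 0, FASN being the exception.

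**Figure D2:**
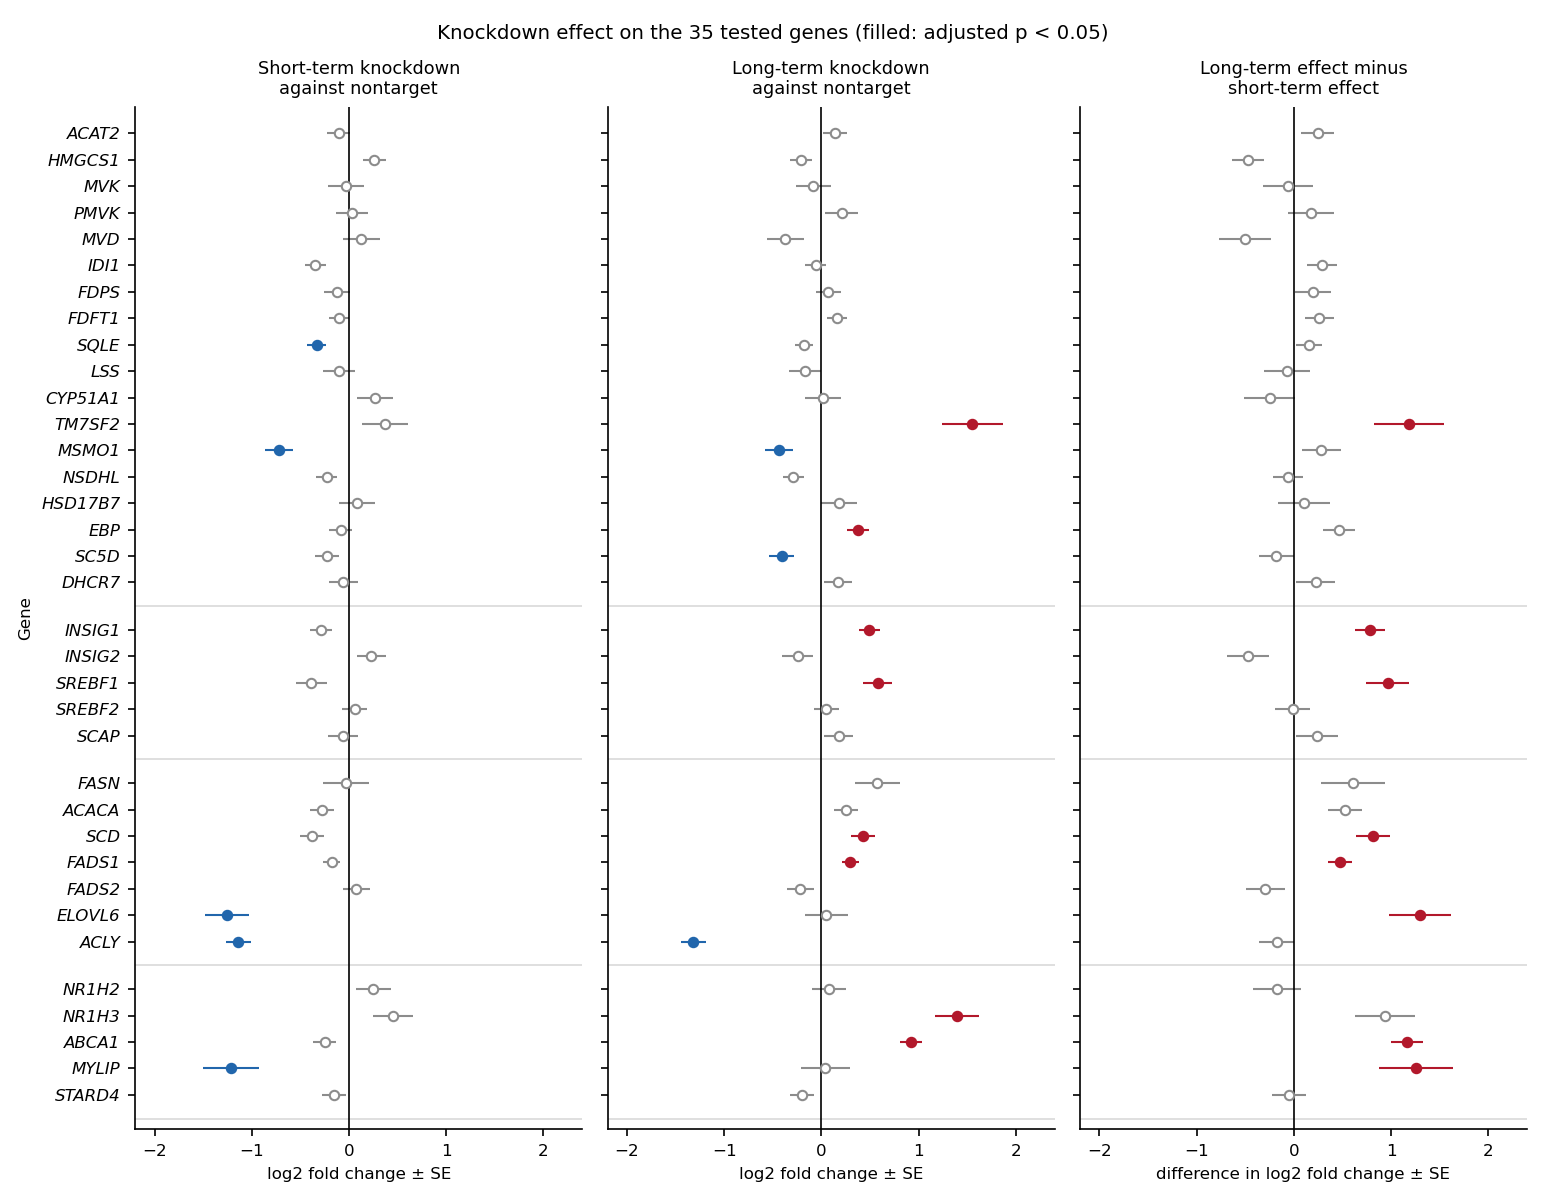
Log2 fold change with its SE for each of the 35 tested genes, by role from top to bottom (sterol synthesis, SREBP control, fatty acid synthesis, LXR and sterol transport); left, short-term knockdown; middle, long-term knockdown; right, long-term effect minus short-term effect. Filled points have an adjusted p below 0.05 (red higher, blue lower): 5 on the left, all lower, 11 in the middle, and 8 on the right, all higher.

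Most of the 18 sterol synthesis enzymes did not pass. After short-term knockdown 0 rose and 2 fell (11.1%, against 5.62% and 4.71% of all tested genes in each direction), and after long-term knockdown 2 rose and 2 fell (11.1% each, against 13.7% and 15.8%), so the counts over both directions were near or under those of all genes. Their median log2 fold changes were -0.09 and -0.02. The early enzymes that build mevalonate and turn it into isoprene units (ACAT2, HMGCS1, MVK, PMVK, MVD, IDI1, FDPS) and those that join and close the squalene chain (FDFT1, LSS) passed in neither comparison. Over the 16 uncalled enzymes of the short-term comparison, log2 fold changes ran from -0.35 (IDI1) to 0.37 (TM7SF2), and over the 14 of the long-term comparison from -0.37 (MVD) to 0.21 (PMVK). FDPS has 8 annotated pseudogenes, CYP51A1 3 and HSD17B7 2, so reads of these enzymes could have been split by the counting.

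MSMO1, the oxidase that begins the removal of the methyl groups at carbon C4 of the sterol ring, was the sterol enzyme that fell in both. It was measured at 161, 195 and 150.4 CPM in short-term nontarget and at 99.5, 121 and 86.0 in short-term knockdown. In the long-term groups it was at 176, 135 and 165 CPM in nontarget and at 137, 107 and 107 in knockdown. The short-term groups did not overlap, while long-term knockdown replicate 1 lay just above long-term nontarget replicate 2. The log2 fold change was -0.72 (SE 0.14, adjusted p = 0.00346) early and -0.44 (SE 0.14, adjusted p = 0.0293) late. The late call was lost without long-term nontarget replicate 1 or 3, or long-term knockdown replicate 2 or 3 (highest adjusted p, 0.116, without nontarget replicate 1). The 40 tested genes nearest to MSMO1 on chromosome 4 changed by -0.42 at the median in the long-term comparison and by -0.18 in the short-term one (log2), and the part of the region in the difference was not tested.

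SQLE, the epoxidase that adds oxygen to squalene and is a rate-limiting step after mevalonate, fell slightly early on. Its values were 219, 233 and 224 CPM in short-term nontarget and 167, 200.2 and 169 in short-term knockdown, without overlap. It fell by 20.6% (log2 fold change -0.33, SE 0.10, adjusted p = 0.0341). The call was lost when any library of the 2 groups other than short-term knockdown replicate 2 was left out, with adjusted p up to 0.145 (without knockdown replicate 1), and also with no filter on low counts. In the long-term groups SQLE was at 251, 242 and 255 CPM in nontarget and 241, 213 and 208 in knockdown, a log2 fold change of -0.18 (SE 0.10, adjusted p = 0.179).

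EBP, SC5D and TM7SF2 passed in the long-term comparison, while HSD17B7 (0.18, adjusted p = 0.507) and DHCR7 (0.17, adjusted p = 0.426), which also act on the closed ring, did not. The test of the difference between the times did not pass for EBP (0.46, SE 0.16, adjusted p = 0.0713) or SC5D (-0.18, SE 0.18, adjusted p = 0.575), and that for TM7SF2 is given further on. EBP, the isomerase that moves the ring double bond, rose from 131, 159 and 156 CPM in long-term nontarget to 196, 171 and 214 in long-term knockdown, without overlap (log2 fold change 0.38, SE 0.12, adjusted p = 0.0195). SC5D, the desaturase of the next step, fell from 78.9, 59.2 and 63.8 CPM to 56.0, 47.4 and 48.2, again without overlap (-0.41, SE 0.13, adjusted p = 0.0209). Each of these calls was lost without long-term nontarget replicate 1 (adjusted p 0.0861 and 0.116) or long-term knockdown replicate 3, and also without knockdown replicate 1 for EBP and knockdown replicate 2 for SC5D. TM7SF2, a sterol reductase, was at 0.670, 0.619 and 0.388 CPM in long-term nontarget and at 2.54, 1.91 and 2.04 in long-term knockdown (log2 fold change 1.55, SE 0.31, adjusted p = 0.00107). Its nontarget values rest on 5, 4 and 3 reads, and the gene overlaps VPS51, so reads may be shared. In the short-term groups EBP was at 156, 175 and 137 CPM in nontarget and 138, 159 and 144 in knockdown, SC5D at 68.3, 66.7 and 55.3 and at 55.4, 57.2 and 49.7, and TM7SF2 at 4.92, 3.34 and 2.83 and at 5.06, 4.97 and 4.60. All of these groups overlapped, and none passed the test (adjusted p = 0.731, 0.310 and 0.396).

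Of the 5 control genes, SREBF1 and INSIG1 rose in the long-term knockdown, and the other 3 passed in neither comparison. SREBF1, which encodes the SREBP form that drives fatty acid synthesis, was at 41.1, 48.6 and 47.9 CPM in short-term nontarget and 29.7, 37.1 and 38.4 in short-term knockdown. Over the long term it was at 54.0, 59.2 and 72.6 CPM in nontarget and 80.9, 81.0 and 117 in knockdown. Neither pair of groups overlapped, and the sides were opposite: lower in the early knockdown and higher in the late one. The early difference did not pass (log2 fold change -0.39, SE 0.16, adjusted p = 0.148), and the late one did (0.58, SE 0.15, adjusted p = 0.00765). SREBF1 lies on the same chromosome arm as FLCN, and the 40 tested genes nearest to it had medians of 0.01 and -0.03.

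INSIG1, which retains SREBP in the endoplasmic reticulum and is itself a target of SREBP, rose late and did not pass early. Its values were 131, 162 and 134 CPM in short-term nontarget, 105, 135 and 110.4 in short-term knockdown, 138, 137 and 147 in long-term nontarget, and 202, 187 and 206 in long-term knockdown. The long-term knockdown libraries all lay above every other library, while the short-term groups overlapped. The late log2 fold change was 0.49 (SE 0.11, adjusted p = 0.00239) and the early one -0.29 (SE 0.11, adjusted p = 0.119). The genes around INSIG1 had a late median of 0.20. SREBF2, the form that drives sterol synthesis, and SCAP, its escort, had log2 fold changes of 0.06 and -0.06 early and 0.05 and 0.18 late. INSIG2, the second retention protein, was at 0.23 early and -0.24 late, and none of these 3 passed.

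Of the fatty acid genes, ACLY fell in both knockdowns, with the smallest adjusted p of the 35 genes in each. ACLY cuts citrate in the cytosol and supplies the acetyl-CoA for both pathways. It was measured at 448, 431 and 529 CPM in short-term nontarget and at 193, 189.6 and 256 in short-term knockdown. In the long-term groups it was at 431, 428 and 514 CPM in nontarget and at 177, 167 and 207 in knockdown. The 6 knockdown libraries all lay below the 6 nontarget libraries. It fell by 54.6% early (log2 fold change -1.14, SE 0.13, adjusted p = 2.18e-05) and decreased by 59.9% late (-1.32, SE 0.13, adjusted p = 7.13e-07). Both calls stood in every alternative run, other than a required fold change of 2.5, with adjusted p up to 0.000304 early and 1.28e-05 late. The genes nearest to ACLY had medians of -0.04 and -0.13.

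ELOVL6, which lengthens palmitate to stearate, fell in the short-term comparison. It was at 16.7, 25.4 and 21.7 CPM in short-term nontarget and 7.97, 11.6 and 6.55 in short-term knockdown, without overlap. The log2 fold change was -1.25 (SE 0.23, adjusted p = 0.00149). Long-term nontarget libraries held 11.1, 15.8 and 11.4 CPM and long-term knockdown libraries 13.9, 15.7 and 9.67, so the late groups overlapped almost fully (0.05, SE 0.22, adjusted p = 0.897).

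SCD and FADS1, which introduce double bonds into fatty acids, rose in the long-term knockdown. SCD was at 1574, 1629.7 and 1584 CPM in long-term nontarget and at 2278, 2162 and 2011 in long-term knockdown, 34.7% higher without overlap (log2 fold change 0.43, SE 0.13, adjusted p = 0.0147). Without long-term knockdown replicate 1 the adjusted p was 0.0592. In the short-term groups SCD was at 1334.5, 1511 and 1269 CPM in nontarget and 961, 1314 and 880.2 in knockdown, with overlap in knockdown replicate 2 only (-0.38, SE 0.13, adjusted p = 0.0623). This early difference passed in DESeq2 (adjusted p = 0.0458), with no filter on low counts (0.0086) and without short-term knockdown replicate 2 (0.00364), and the adjusted p went up to 0.254 without short-term nontarget replicate 2. FADS1 was at 244, 224 and 239.9 CPM in long-term nontarget and at 290.2, 286 and 293 in long-term knockdown (0.30, SE 0.09, adjusted p = 0.0164). Its call was lost without long-term nontarget replicate 2 (adjusted p = 0.0813), without long-term knockdown replicate 1 or with no filter on low counts. Early on FADS1 was at 202, 222 and 233 CPM in nontarget and 183, 199.7 and 197 in knockdown (-0.18, SE 0.09, adjusted p = 0.237). FADS1 overlaps FADS2 on chromosome 11, and FADS2 was at -0.22 late and 0.08 early without passing.

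FASN, which builds palmitate, and ACACA, which makes its malonyl-CoA substrate, did not pass in either knockdown comparison. FASN was at 157, 192 and 273 CPM in long-term nontarget and at 300.5, 240.5 and 387 in long-term knockdown, replicate 3 being highest each time. Its late log2 fold change was 0.58 (SE 0.23, adjusted p = 0.0764), beside a median of 0.46 for the genes around it near the end of chromosome 17. With the replicate number as a block, the adjusted p was 0.000283. Same-numbered libraries deviated together in the long-term pair, but the block was fitted over all 12 libraries, including the short-term pair, where they did not. The adjusted p was 0.185 in DESeq2, 0.282 with no filter and 0.296 without long-term knockdown replicate 3. FASN passed without long-term nontarget replicate 3 or long-term knockdown replicate 2 (lowest 0.0219). The block also brought NSDHL, a decarboxylating enzyme of sterol synthesis, past the threshold (-0.29, adjusted p = 0.0538 without and 0.0264 with the block). This gave 9 higher and 4 lower genes in place of 8 and 3, and the share of all tested genes was not taken under the block. ACACA was at -0.27 early and 0.26 late.

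**Figure D3:**
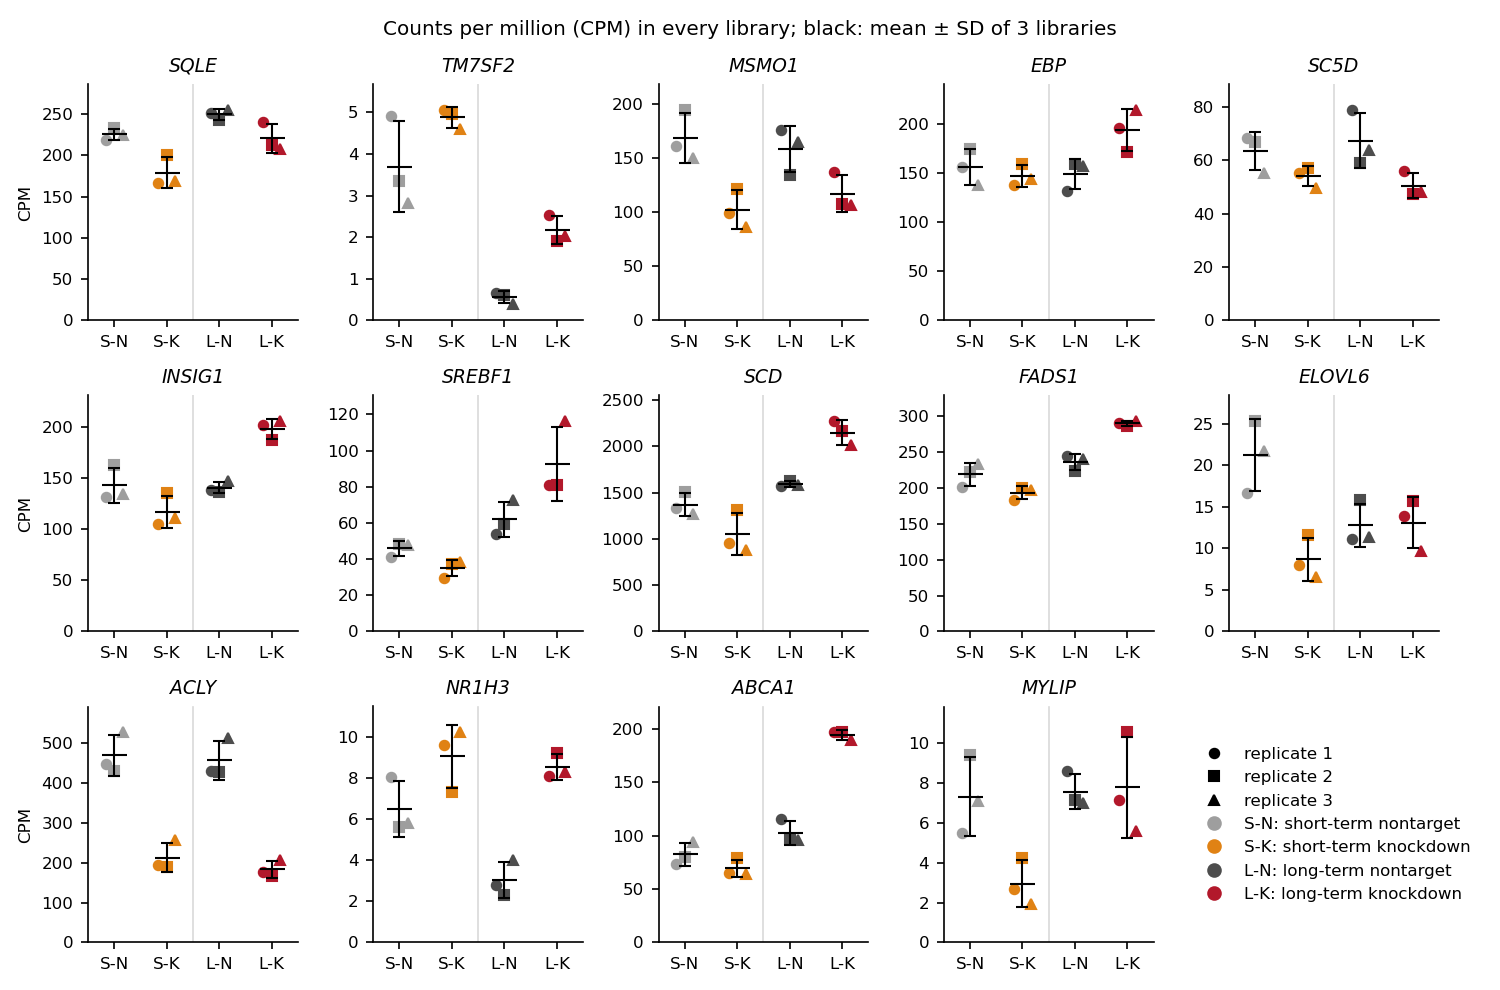
CPM of 14 genes in each of the 12 libraries, on linear axes from 0; symbols give the replicate number, colours the group, and black bars the mean ± SD of 3 libraries. ACLY falls in both knockdown groups, ELOVL6 and MYLIP are lowest in the short-term knockdown, and ABCA1, INSIG1, SCD and FADS1 are highest in the long-term knockdown.

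In the LXR branch, ABCA1, the exporter that loads cholesterol onto apolipoproteins, rose in the long-term knockdown. It was at 115, 96.8 and 96.0 CPM in long-term nontarget and at 197, 198 and 189 in long-term knockdown, 89.3% higher with a narrow spread (log2 fold change 0.92, SE 0.12, adjusted p = 9.8e-06). In the short-term groups it was at 73.4, 80.2 and 94.1 CPM in nontarget and 65.4, 79.0 and 63.7 in knockdown, which overlapped (-0.25, SE 0.12, adjusted p = 0.217). NR1H3, the LXR form induced by its own activity in some cells, was at 2.81, 2.32 and 4.01 CPM in long-term nontarget and 8.09, 9.24 and 8.31 in long-term knockdown (1.39, SE 0.23, adjusted p = 0.000151). It was at 8.06, 5.62 and 5.81 CPM in short-term nontarget and 9.62, 7.31 and 10.3 in short-term knockdown, so long-term nontarget was the group that stood apart. NR1H3 overlaps ACP2.

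MYLIP, the ubiquitin ligase that marks lipoprotein receptors for removal, fell in the short-term knockdown. Its values were 5.47, 9.42 and 7.07 CPM in short-term nontarget and 2.66, 4.24 and 1.95 in short-term knockdown (log2 fold change -1.21, SE 0.29, adjusted p = 0.0109). The call was lost without short-term nontarget replicate 2 (adjusted p = 0.0711) or short-term knockdown replicate 1. Over the long term it was at 8.58, 7.12 and 6.99 CPM in nontarget and 7.16, 10.6 and 5.60 in knockdown (0.04, SE 0.25, adjusted p = 0.926). NR1H2, the widely expressed LXR form, and STARD4, a sterol carrier of the cytosol, did not pass in either comparison (0.25 and -0.16 early, 0.08 and -0.20 late).

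The second question was whether the knockdown effect differed between the early and late cells, tested as the long-term effect minus the short-term effect in the same fit. For 8 of the 35 genes (22.9%) the effect was more positive late, against 4.98% of all tested genes, and for 0 it was more negative, against 8.43%. The 8 were SREBF1, INSIG1, SCD, FADS1, ELOVL6, ABCA1, MYLIP and TM7SF2. DESeq2 also gave 0 more negative, and 2 genes, HMGCS1 and INSIG2, were more negative at an unadjusted p below 0.05. HMGCS1 (-0.47, SE 0.16, adjusted p = 0.063) passed as more negative with no filter (adjusted p = 0.047), with the replicate block (0.0226) and without short-term nontarget replicate 3 or short-term knockdown replicate 3 (lowest adjusted p 0.0211), and 1 gene, MVD, passed as more negative without long-term nontarget replicate 1. The block also took NR1H3 (0.0255), FASN (0.00471), ACACA (0.0198) and EBP (0.0257) past the threshold as more positive. The difference includes the short-term pair, where same-numbered libraries did not deviate together (correlations 0.0172 to 0.111), so the block is not warranted for all of it. ABCA1 differed by 1.17 (SE 0.16, adjusted p = 8.59e-05), INSIG1 by 0.78 (SE 0.16, adjusted p = 0.00223), SCD by 0.81 (SE 0.18, adjusted p = 0.00442) and SREBF1 by 0.96 (SE 0.22, adjusted p = 0.00631). For ABCA1, INSIG1, SCD and SREBF1, and for ELOVL6 (1.30, SE 0.32, adjusted p = 0.00998) and FADS1 (0.48, SE 0.12, adjusted p = 0.0155), the call stood when any single library was left out. The remaining calls did not hold as well: TM7SF2 (1.19, SE 0.36, adjusted p = 0.0372) lost the call in 7 of 12 such fits (adjusted p up to 0.121, without long-term nontarget replicate 3) in DESeq2 (adjusted p = 0.109) and with no filter, and MYLIP (1.26, SE 0.38, adjusted p = 0.0366) in 8 of 12 (up to 0.112, short-term nontarget replicate 2 being left out). For SREBF1, INSIG1, SCD, FADS1 and ABCA1 the early estimate was below 0 without passing and the late one passed above 0. Early on SCD passed as lower in the other fits given above, and INSIG1 without short-term knockdown replicate 2 (adjusted p = 0.0412). ELOVL6 and MYLIP were instead low early and near 0 late. ACLY, lower at both times, showed no difference that passed (-0.18, SE 0.18, adjusted p = 0.593), and NR1H3 lay at the threshold (0.94, SE 0.30, adjusted p = 0.0502).

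The last question was what long culture did within each kind of cell. In nontarget cells 1 of the 35 genes rose (2.86%), against 3.17% of all tested genes, and 2 fell (5.71%), against 4.38%. The gene that rose was HMGCS1, which makes the precursor of mevalonate, from 178, 204 and 224 CPM in short-term to 345, 356 and 352 in long-term nontarget (log2 fold change 0.80, SE 0.11, adjusted p = 0.000244). Genes nearest to it on chromosome 5 had a median of 0.38. TM7SF2 fell by 2.25 on the log2 scale (SE 0.30, adjusted p = 0.000118), and NR1H3 by 1.02 (SE 0.23, adjusted p = 0.0109), the latter call lost without short-term nontarget replicate 1 (adjusted p = 0.0828) or long-term nontarget replicate 2. These are the same long-term nontarget libraries against which both genes rose in the long-term knockdown, so the 2 results share them. ELOVL6 had a log2 fold change of -0.73 without passing (SE 0.22, adjusted p = 0.0502). It passed in DESeq2 (0.0484), with no filter (0.00211) and in a fit of the compared groups alone (0.0126). It also passed without short-term nontarget replicate 1 or long-term nontarget replicate 2 (lowest 0.0412). It did not pass with RLE scaling (0.0504), with a mean of at least 10 CPM (0.0653) or in the other left-out fits (up to 0.231).

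In knockdown cells 13 of the 35 genes rose over time (37.1%), against 11.5% of all tested genes, and 2 fell (5.71%), against 15.2%. The genes that rose came from every role: HMGCS1, IDI1, FDFT1, SQLE and EBP of sterol synthesis, INSIG1 and SREBF1 of control, FASN, ACACA, SCD and FADS1 of fatty acid synthesis, and ABCA1 and MYLIP. This comparison shares its libraries with the knockdown comparisons above. Among the larger changes were ABCA1 (log2 fold change 1.49, SE 0.12, adjusted p = 6e-08), SREBF1 (1.40, SE 0.16, adjusted p = 3.63e-06), MYLIP (1.31, SE 0.29, adjusted p = 0.00238), SCD (1.03, SE 0.13, adjusted p = 9.43e-06) and FASN (0.87, SE 0.23, adjusted p = 0.0116), the last beside a median of 0.55 for the genes around it. FASN lost the call without long-term knockdown replicate 3 (adjusted p = 0.0702) and with no filter on low counts (0.0847). The 5 sterol enzymes that rose changed by 0.30 to 0.40 (HMGCS1 by 0.33, where the genes around it had a median of 0.36), and the calls of HMGCS1, IDI1, FDFT1 and SQLE were each lost without any 1 of short-term knockdown replicates 1 and 3 and long-term knockdown replicates 1 and 2, with adjusted p up to 0.182, 0.170, 0.129 and 0.156. A fit of the compared groups alone lost these 4 as well (0.0999, 0.081, 0.0848 and 0.0917), and a mean of at least 10 CPM lost HMGCS1. That of EBP was lost without short-term knockdown replicate 1 (0.0726) or long-term knockdown replicate 1 or 3. The 2 genes that fell were TM7SF2 (-1.07, SE 0.25, adjusted p = 0.00431) and INSIG2 (-0.88, SE 0.15, adjusted p = 0.000378). INSIG2 was at 14.2, 16.8 and 14.2 CPM in short-term and 9.24, 7.78 and 6.95 in long-term knockdown, opposite in direction to INSIG1. With the replicate block, again fitted over all 12 libraries, ACAT2 (adjusted p = 0.00719), DHCR7 (0.0111), ELOVL6 (0.0106) and ACLY (0.0377, lower) passed as well. Same-numbered libraries deviated together in this pair.

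Beyond the 36 genes, 47 other genes of these pathways were examined, of which 42 had enough counts. After short-term knockdown 3 rose and 5 fell, after long-term knockdown 4 rose and 5 fell, and 34 and 33 did not pass. As shares these were 7.14% and 11.9% early, against 5.62% and 4.71% of all tested genes, and 9.52% and 11.9% late, against 13.7% and 15.8%. Among the genes that passed, the largest early changes were in CYP27A1, a mitochondrial enzyme that makes an oxysterol ligand of LXR (1.37, 0.911 and 1.73 CPM in nontarget, 6.07, 5.85 and 6.72 in knockdown, log2 fold change 2.00, SE 0.28, adjusted p = 0.000187, beside an early median of 0.44 for the genes around it), and in ELOVL7, an elongase of long-chain fatty acids. ELOVL7 was at 16.7, 15.8 and 20.4 CPM in short-term nontarget and 8.10, 7.46 and 9.56 in short-term knockdown, without overlap (-1.06, SE 0.17, adjusted p = 0.000533). LPCAT3, an LXR target that puts polyunsaturated fatty acids into membranes, fell early, from 65.7, 70.9 and 59.2 CPM to 40.6, 46.2 and 35.6, again without overlap (-0.67, SE 0.12, adjusted p = 0.00167). SMPDL3A, a secreted LXR target at 3.83, 4.40 and 6.91 CPM in short-term nontarget and 2.53, 3.07 and 1.95 in short-term knockdown, fell by 0.91 (SE 0.28, adjusted p = 0.0456), but lost the call without any 1 of 5 of the 6 libraries compared (highest adjusted p, 0.231, with nontarget replicate 3 left out) and in DESeq2.

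Late on, the largest fall was in ACSL1, which activates long-chain fatty acids: 36.5, 37.8 and 33.8 CPM in long-term nontarget and 4.97, 4.99 and 3.22 in long-term knockdown (log2 fold change -2.93, SE 0.17, adjusted p = 1.48e-09). It did not pass early (0.08, SE 0.14, adjusted p = 0.814), and the 40 tested genes around it near the end of chromosome 4 had a late median of -1.01. ELOVL7 fell further, from 28.7, 21.4 and 23.5 CPM to 5.78, 5.58 and 4.75 (-2.13, SE 0.17, adjusted p = 7.89e-08). CYP27A1 changed direction, from 1.74, 2.94 and 1.68 CPM in long-term nontarget to 0.809, 0.440 and 0.339 in long-term knockdown (-1.50, SE 0.34, adjusted p = 0.00264), the latter from 7, 3 and 2 reads. Between the times its effect differed by -3.50 (SE 0.45, adjusted p = 3.44e-05). SCARB1, a receptor that takes up cholesterol from high-density lipoprotein, fell from 192, 215 and 281 CPM to 94.5, 95.5 and 139 (-1.07, SE 0.18, adjusted p = 0.000272). The remaining genes that passed, named after their values were seen, were RNF145 and VLDLR (higher) and PLTP and ACSS2 (lower) early, and RNF145, FBXW7, LPIN1 and VLDLR (higher) and ELOVL1 (lower) late. The genes nearest to RNF145 had medians of 0.38 early and 0.47 late, beside its own 0.50 and 0.74, and those nearest to LPIN1 a late median of 0.30 beside its own 0.63. Left-out libraries ended 3 of these calls: VLDLR early (short-term nontarget replicate 1 or knockdown replicate 2, adjusted p up to 0.0787), ACSS2 (nontarget replicate 1 or 2 or knockdown replicate 1 or 3, up to 0.108) and ELOVL1 (long-term nontarget replicate 3 or knockdown replicate 1 or 2, up to 0.0947).

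The knockdown effect on these 42 genes differed between the times in both directions. It was more positive late for 3 (7.14%, against 4.98% of all tested genes), LPCAT3 (0.94), PLTP (0.59) and VLDLR (0.48), and more negative for 3 (7.14%, against 8.43%), CYP27A1 (-3.50), ACSL1 (-3.01) and ELOVL7 (-1.07). The adjusted p was 0.00111 for LPCAT3, 0.0127 for PLTP, 0.0353 for VLDLR, 6.23e-08 for ACSL1 and 0.00616 for ELOVL7. The call of VLDLR was lost in 9 of 17 alternative fits (highest adjusted p, 0.106, with nontarget replicate 2 of the short-term group left out), and the genes around ACSL1 had a median of -0.98.

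**Figure D4:**
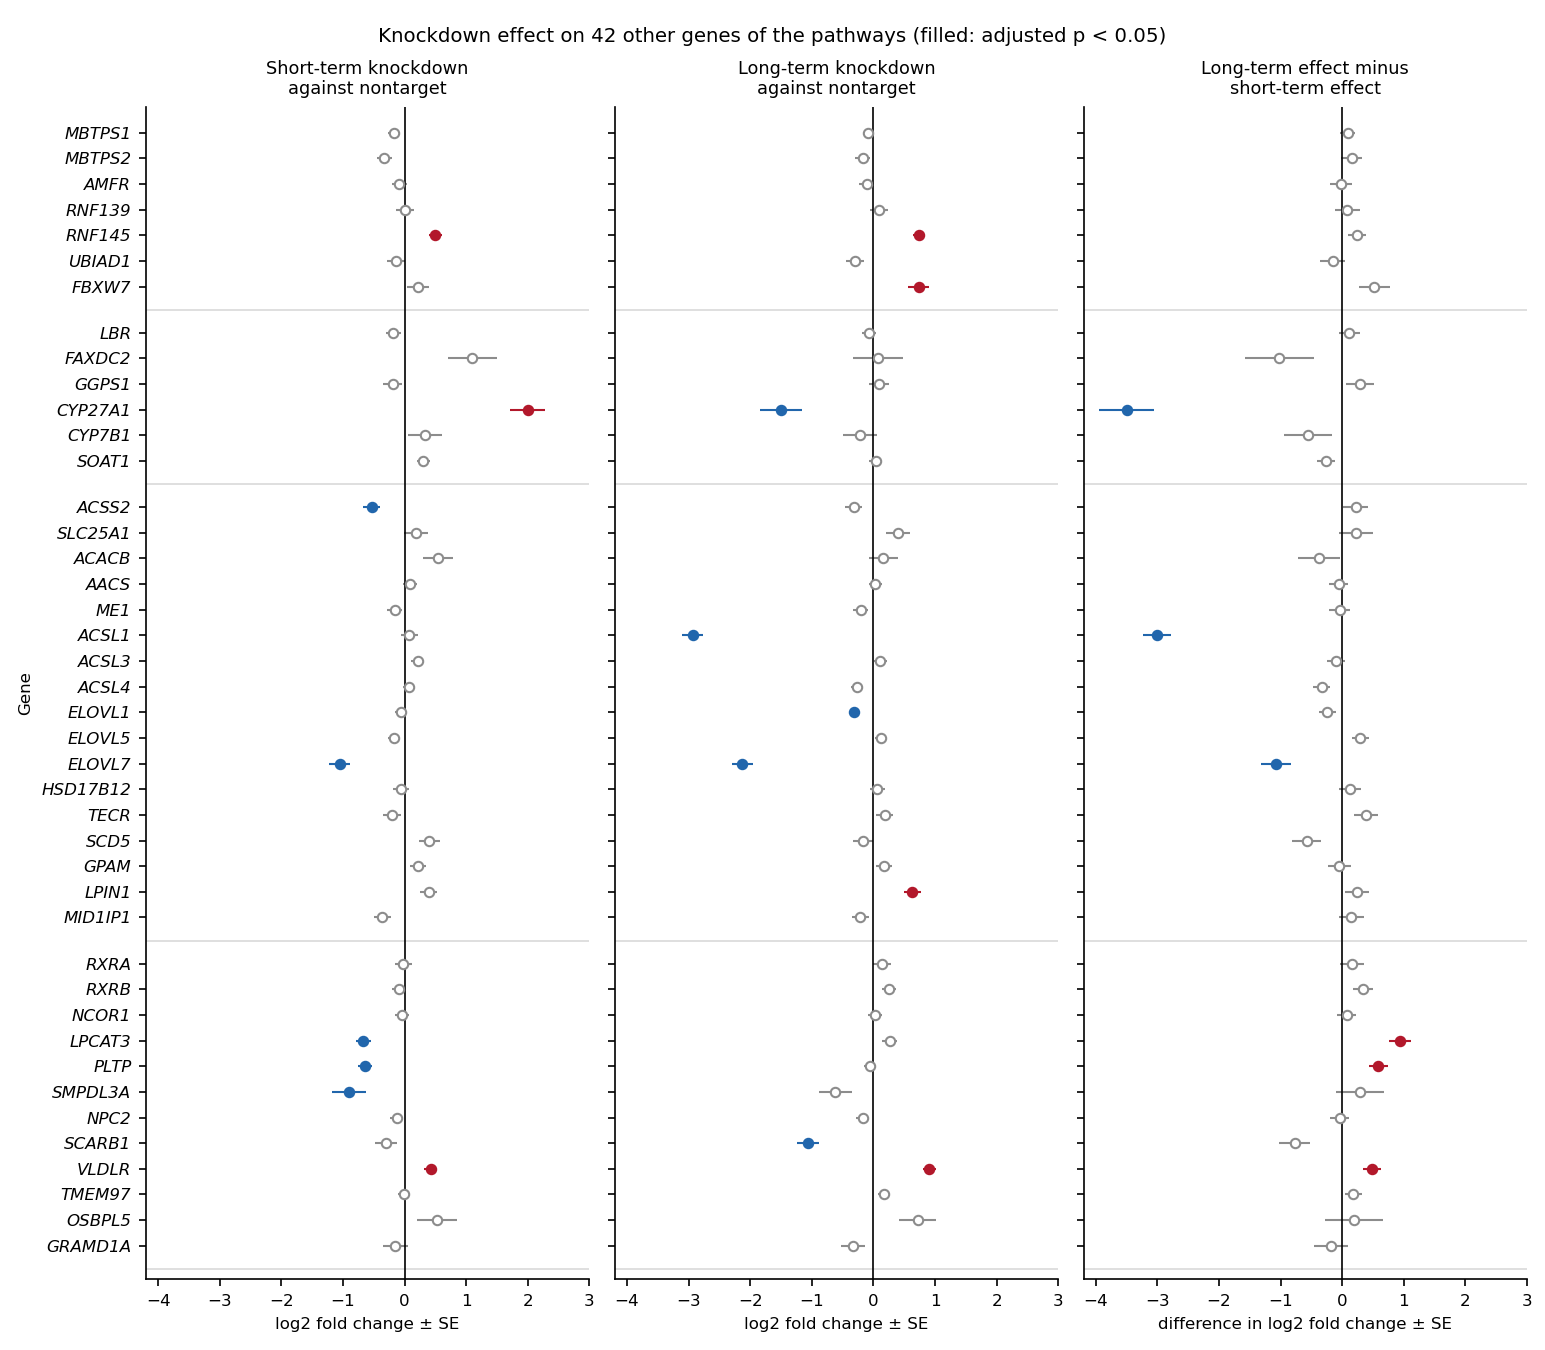
Log2 fold change with its SE for 42 other genes of the SREBP and LXR pathways, from top to bottom SREBP processing, other sterol enzymes, acetyl-CoA supply and fatty acid handling, and LXR partners and targets; panels and filled points as in the plot of the 35 genes. ELOVL7 is lower in both knockdowns, ACSL1 in the long-term one, and CYP27A1 lies above 0 in the short-term one and below 0 in the long-term one.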

How the data were processed

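Polyadenylated RNA was sequenced in 12 libraries, 3 per group. Per the labels and the study's methods, libraries were made with a TruSeq RNA kit, aligned with STAR to GRCh38 and counted with featureCounts; versions and the strand setting were not given in the sources used here, so a gene and its antisense partner cannot be told apart. The authors deposited whole-number counts per gene, and normalized values rounded to whole numbers (treated here as a score, and not tested). GENCODE 29 gave symbols and exon lengths (263 of 58288 IDs were unmatched). Counts were tested with edgeR 4.0.16 (R 4.3.3; TMM, default expression filter, robust quasi-likelihood fit of all 12 libraries, prior count 2, SE from the F statistic), tested on simulated data first. P-values were adjusted over 13959 genes holding 99.78% of counts. The biological coefficient of variation was 11.99%. Replicates differed more than sampling noise (chi-square per degree of freedom 2.15 to 13.0).

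The genes and lists were chosen with earlier results of these data known. Values are given per library for genes called in a knockdown comparison or the difference between them, at most 14, and the 4 other pathway genes with the largest called change in each knockdown comparison. Values are also given for FLCN, as the check of the knockdown, and for FASN, HMGCS1 and INSIG2, which this rule did not select. Same-numbered libraries deviated together in the long-term knockdown (correlations 0.123 to 0.458) and long-culture knockdown comparisons (0.223 to 0.455), each over 0.1, so the replicate block was used beside those results. In the former, 5 of 6 libraries correlated best with their own number. The block was fitted over all 12 libraries and not over those pairs alone. Alternatives were RLE scaling, DESeq2 1.42.0, no filter, a mean of at least 10 CPM, only the compared groups, the block, each library left out, and a fold change of at least 2.5. The limit given for 0 counts covers counting error only.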

Additional observations from a re-analysis of the deposited data

Results flagged for a closer look

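The knockdown effect differed between long-term and short-term cells for 8 of the 35 tested genes, by the test of the difference itself (edgeR's quasi-likelihood test, adjusted p below 0.05): 8 more positive late (22.9%), against 4.98% of all tested genes, and 0 more negative, against 8.43%. The long-term effect minus the short-term effect, on the log2 scale, was 1.186 for TM7SF2, 0.783 for INSIG1, 0.965 for SREBF1, 0.8127 for SCD, 0.4754 for FADS1, 1.301 for ELOVL6, 1.17 for ABCA1 and 1.256 for MYLIP. All 8 were positive. In 5 of them (INSIG1, SREBF1, SCD, FADS1 and ABCA1) the long-term knockdown was above its control and the short-term estimate was below 0, whereas ELOVL6 and MYLIP were low in the short-term knockdown and near 0 in the long-term one. TM7SF2 was above 0 at both times (0.37 and 1.55), with 3 to 5 reads per long-term nontarget library. It fell over time in nontarget cells (-2.25) and in knockdown cells (-1.07). Its call for the difference was lost in 7 of 12 left-out fits and in DESeq2 (adjusted p = 0.109). That of MYLIP was lost in 8 of 12 left-out fits. FLCN itself was reduced by 1.29 early and 0.68 late on the log2 scale, a difference of 0.61 (SE 0.25) that did not pass (adjusted p = 0.118).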

How the results depend on the processing

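With the replicate number as a block, calls went from 5 to 9 (0 higher, 9 lower) in the short-term knockdown, from 3 to 6 in nontarget cells over time and from 8 to 13 (12 higher, 1 lower) for the difference between the times. Shares of all tested genes were taken in the main fit only, so the counts under the alternatives cannot be set against all genes. In the short-term pair and the nontarget pair the same number did not mark libraries that deviated together (correlations 0.0172 to 0.111 and -0.034 to 0.0767, and 3 and 2 of 6 libraries correlating best with their own number), so libraries there share only a number. In the comparisons where the numbers pair the libraries, the block ended no call. A required fold change of 2.5 left 0, 2, 1, 2 and 0 genes in the short-term knockdown, long-term knockdown, nontarget over time, knockdown over time and difference. For nontarget cells over time, no filter gave 5 genes, a mean of at least 10 CPM 1 gene (of 32 tested), and a fit of the compared groups alone 6. Leaving out a library gave 3 to 8 genes in the short-term knockdown (3 without nontarget replicate 2 or knockdown replicate 1, 8 without knockdown replicate 2), 8 to 11 in the long-term knockdown, 3 in nontarget over time, 10 to 16 in knockdown over time and 6 to 9 for the difference. Among the values of the 14 genes given per library, sign changes came with left-out libraries and in values that had not passed: ELOVL6 in the long-term knockdown (-0.09967 to 0.2128), MYLIP in the long-term knockdown (-0.2302 to 0.2084) and EBP in the short-term knockdown (-0.1691 to 0.00328). Of the values of these 14 genes in both knockdown comparisons and their difference, under the alternatives, 506 kept direction and side, 39 lost their call, 13 gained one and 7 changed sign; the cause was not tested. Low counts limit TM7SF2, NR1H3, MYLIP and CYP27A1.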
